A study of Drosophila melanogaster with 18 samples.

Results

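The genes described here encode parts of the protein entry gate and the folding machinery of the endoplasmic reticulum (ER), together with genes of the unfolded protein response, the signalling that follows when unfolded proteins pile up in the ER. They were chosen by name, though with earlier results of these data known: the chaperones Hsc70-3, Gp93 and Calr, the disulfide isomerase Pdi, the translocon subunits Sec61alpha, Sec61beta and Sec61gamma, and the signalling genes Xbp1, crc and PEK. Of these 10 genes, 9 were found by their FlyBase identifier among the 17558 genes of the count table. Pdi is not analysed here, because the identifier that the annotation pairs with this symbol did not match one in the table.

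The Sec61 complex is the channel through which newly made secreted and membrane proteins enter the ER, and its alpha subunit forms the pore while the small beta and gamma subunits sit at its sides. Inside, Hsc70-3 (the fly BiP), Gp93 (the fly GRP94) and Calr (calreticulin) help proteins to fold, and PEK (the fly PERK) and Ire1 are ER membrane sensors of unfolded proteins. PEK slows translation and thereby favours the translation of crc (the fly ATF4), while Ire1 splices Xbp1 mRNA, so both crc and Xbp1 are controlled largely after transcription. A gene count does not tell spliced from unspliced Xbp1 mRNA and does not measure translation.

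Total RNA was sequenced from the heads of untreated adult flies, many flies pooled per preparation, after whole flies had been blended and the heads sieved out. The groups were Δmimi flies, whose mimi gene (it makes a long noncoding RNA) is mostly deleted, and wild-type flies of the strain w1118. Each genotype gave 3 preparations. From each came the pellet of a faster spin (granules 1), the other portion of that pellet after a wash with detergent (granules 2) and the tissue lysate from which both were spun, so 18 libraries formed 6 groups of 3. The lysate itself was made in a buffer with detergent, the granule fractions are whatever sedimented and not a purified granule type, and the age of the flies is not given in the sources used here.

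Total counts per library ranged from 3635256 to 7798946. The targeted RNA mimi had 30 to 113 counts per Δmimi library, against 7090 to 18379 in the wild-type libraries. Neuron and photoreceptor markers were present in every group, and accessory gland and midgut markers summed to at most 4.2 and 11.2 CPM (counts scaled to library size with TMM factors) in any library. Glia markers summed to 1684 to 2253 CPM in granule libraries of either genotype, against 1252 to 1685 CPM in lysates, and the range was 13989 to 23807 CPM in granules and 19778 to 33444 CPM in lysates for photoreceptor markers. Head fat body markers summed to 8676 to 9838 CPM in Δmimi granules, against 6910 to 7478 CPM in Δmimi lysates, and to 5843 to 9578 CPM in wild-type granules, against 5019 to 7151 CPM in wild-type lysates. The part that this shift in cell type markers had in the granule results below was not tested, and in bulk heads fewer cells of a type and less RNA per cell cannot be told apart. Preparation 2 stood apart from the others in every group. Its 5 muscle markers summed to 20187, 20530 and 22189 CPM in Δmimi granules 1, granules 2 and lysate and to 17116, 17770 and 17780 CPM in those of wild-type heads, against 5177 to 8625 CPM in Δmimi and 5215 to 6279 CPM in wild-type preparations 1 and 3, and its photoreceptor markers were the lowest of each group. The part of preparation 2 in the results was not tested, and values without it are given where they turn a call. Germline markers summed to 17.8 to 55.4 CPM in Δmimi lysates, against 5.2 to 11.5 CPM in wild-type lysates. In granules they summed to 47.5 to 106.6 CPM in Δmimi libraries, against 5.7 to 12.2 CPM in wild-type libraries. The part of this difference in the comparisons between genotypes was not tested.

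The 9 genes differed widely in level. Per kilobase of exon, crc was the highest, with 348 ± 38 CPM per kilobase in Δmimi lysates and 350 ± 40 in wild-type lysates (SD, n = 3 each). Calr (233 ± 21 in Δmimi lysates, 223 ± 11 in wild-type lysates) and Xbp1 (227 ± 9.5 in Δmimi lysates, 216 ± 15 in wild-type lysates) came next, and they did not differ beyond their spread. Hsc70-3 followed at 121 ± 2.7 CPM per kilobase in Δmimi lysates and 126 ± 6.5 in wild-type lysates, then Sec61alpha at 77.5 ± 1.6 in Δmimi and 75.5 ± 0.90 in wild-type lysates and Gp93 at 59.6 ± 4.9 in Δmimi and 63.6 ± 5.1 in wild-type lysates. The small translocon subunits were lower than the pore subunit and alike: Sec61beta had 42.2 ± 2.4 and Sec61gamma 42.0 ± 1.9 CPM per kilobase in Δmimi lysates, against 39.1 ± 2.3 and 38.8 ± 5.0 in wild-type lysates. PEK, the sensor kinase, was lowest, at 21.6 ± 0.21 CPM per kilobase in Δmimi lysates and 21.4 ± 0.72 in wild-type lysates. Together the genes took 0.303 ± 0.031% of the counts of Δmimi lysates and 0.304 ± 0.026% of those of wild-type lysates.

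**Figure D1:**
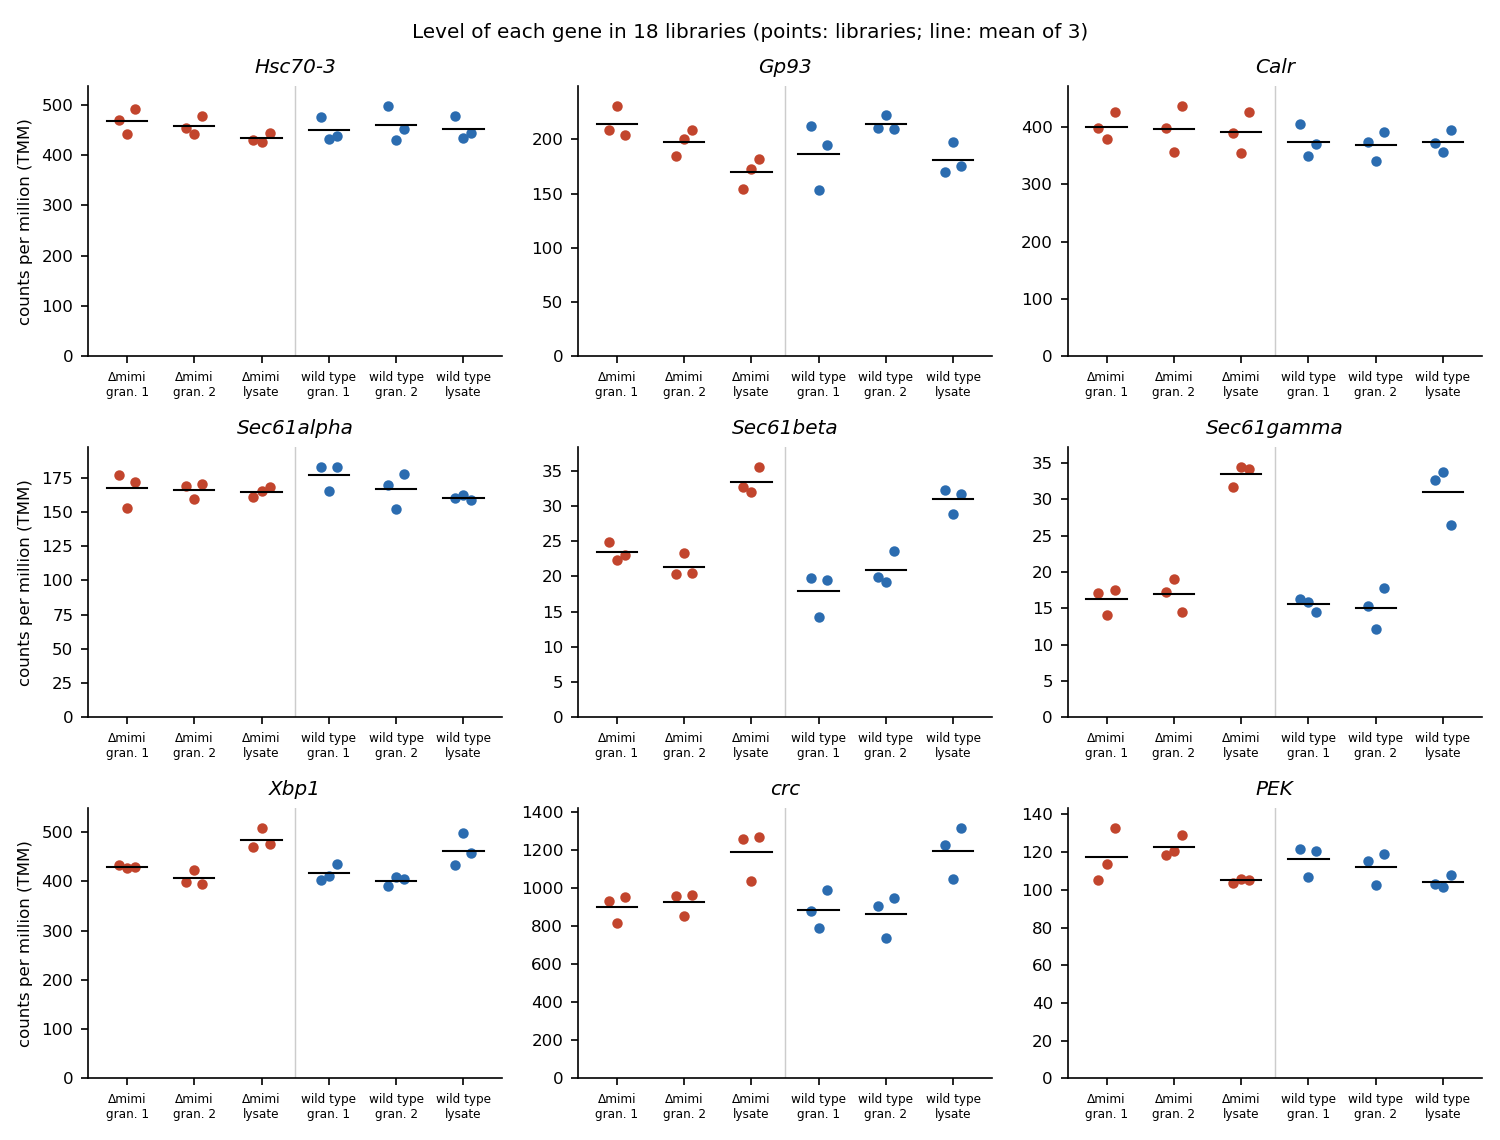
Each panel shows 1 gene, with TMM-scaled CPM on a linear axis from 0 in the granules 1, granules 2 and lysate libraries of Δmimi (red) and wild-type (blue) heads, as points for the libraries and a line for the mean of 3. Sec61gamma had 12.2 to 19.0 CPM in the granule libraries, against 26.4 to 34.5 CPM in the lysates, and crc had 740 to 992 CPM against 1039 to 1317 CPM, while Hsc70-3, Calr and Sec61alpha lay at much the same level in all 6 groups.

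No difference in these RNAs was detected between heads with and without mimi. None of the 9 genes was called in Δmimi against wild-type lysates (edgeR quasi-likelihood test with Benjamini-Hochberg adjustment over 9771 genes, called at adjusted p under 0.05 and absolute log2 fold change above 0.5). Of all genes tested, 1.6% were called. At an unadjusted p under 0.05, 13.9% of all genes and none of the 9 stood out, and DESeq2 called none of the 9. Hsc70-3, the classical target of the unfolded protein response, had 430, 426 and 444 CPM in Δmimi lysates, against 479, 435 and 444 CPM in wild-type lysates. The groups overlapped, with a log2 fold change of -0.06 (95% confidence interval -0.32 to 0.20, adjusted p = 0.898). Xbp1 had 471, 509 and 476 CPM in Δmimi lysates, against 433, 498 and 457 CPM in wild-type lysates, a log2 fold change of 0.07 (interval -0.19 to 0.34, adjusted p = 0.866). For crc the values were 1259, 1039 and 1272 CPM in Δmimi lysates, against 1229, 1047 and 1317 CPM in wild-type lysates. Its 3 preparations spread more than the genotypes did, and the log2 fold change was -0.01 (interval -0.37 to 0.36).

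The remaining lysate differences were as small. The log2 fold change of Δmimi over wild type was -0.09 for Gp93, 0.07 for Calr, 0.04 for Sec61alpha, 0.11 for Sec61beta, 0.11 for Sec61gamma and 0.02 for PEK, with adjusted p of 0.77 to 0.995 over the 9 genes. No gene of the 9 had lysates that did not overlap between genotypes, which held for 19.1% of all genes. The 95% confidence intervals of the 9 genes all lay between -0.37 and 0.42, so a change beyond the threshold of 0.5 in either direction was outside every interval. The median over the 9 genes was 0.04, beside 0.00 over all genes tested. With the replicate number as a block, 9.25% of all genes and again none of the 9 were called.

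**Figure D2:**
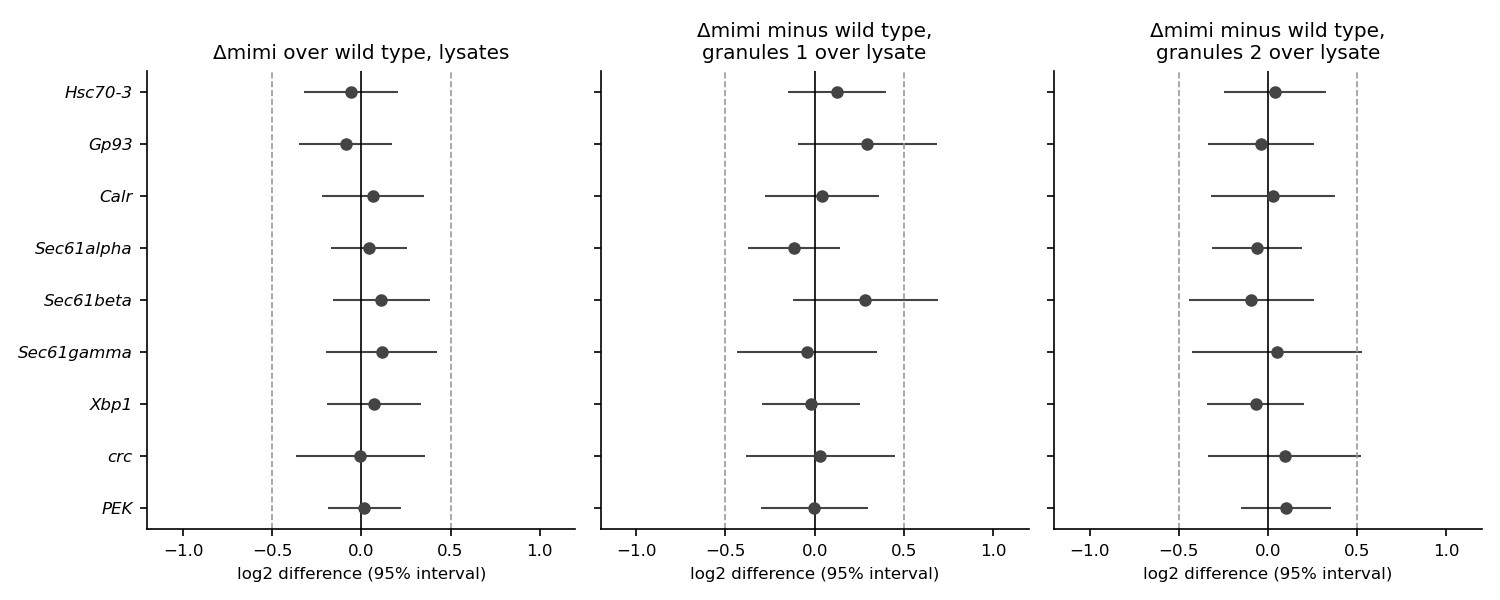
The left panel shows the log2 fold change of Δmimi over wild-type lysates for each gene, and the others show the Δmimi minus wild-type difference in the log2 fold change of granules 1 and of granules 2 over lysate, as points with 95% confidence intervals and dashed lines at ±0.5. In the left panel all intervals span 0 and stay inside the dashed lines, and in the others all 9 intervals span 0 as well.

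Without a correction for exon length, the small translocon subunits stood farthest of the 9 genes from their lysate levels in the granule fractions. With the length correction described below, crc stood farther than Sec61beta in both granule fractions of both genotypes. In Δmimi granules 1 and 2 and wild-type granules 1 crc was at -0.48, -0.44 and -0.51 on the log2 scale. Sec61beta was there at -0.14, -0.27 and -0.46. The values that follow are without the correction. Sec61gamma RNA was lower in both granule fractions of both genotypes by about 1 on the log2 scale, Sec61beta RNA was lower by 0.54 to 0.80 in all but Δmimi granules 1, and Sec61alpha RNA lay between 0.02 and 0.13 above the lysate level. On the dm6 genome Sec61alpha lies on chromosome 2L (6477182 to 6480575, minus strand), Sec61beta on 2R (14618771 to 14619681, plus strand) and Sec61gamma on X (19643327 to 19644518, plus strand), and no other annotated exon overlaps theirs. All values of granules 1 and of granules 2 are set against the same lysates, so the fractions are not independent of each other.

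Sec61gamma had 17.2, 14.1 and 17.5 CPM in Δmimi granules 1 and 17.3, 19.0 and 14.5 CPM in Δmimi granules 2, against 31.8, 34.5 and 34.2 CPM in Δmimi lysates. It had 16.3, 15.8 and 14.5 CPM in wild-type granules 1 and 15.3, 12.2 and 17.8 CPM in wild-type granules 2, against 32.7, 33.8 and 26.4 CPM in wild-type lysates. Every granule library was below every lysate, at 58 to 130 counts per granule library and 154 to 253 per lysate. Within a genotype, 29.1% and 28.7% of all genes had granules and lysates without overlap in Δmimi granules 1 and 2. In wild-type granules 1 and 2 the shares were 32.7% and 34.1%. The log2 fold change over lysate was -1.03 (SE 0.13, adjusted p = 0.0062) in Δmimi granules 1 and -0.97 (SE 0.13, adjusted p = 0.0107) in Δmimi granules 2. In wild-type heads it was -1.002 (SE 0.14, adjusted p = 0.0058) in granules 1 and -1.02 (SE 0.18, adjusted p = 0.0121) in granules 2. Each of these passed the test.

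Sec61beta had 24.9, 22.3 and 23.1 CPM in Δmimi granules 1 and 20.4, 23.3 and 20.4 CPM in Δmimi granules 2, against 32.7, 32.0 and 35.5 CPM in Δmimi lysates. It had 19.8, 14.3 and 19.5 CPM in wild-type granules 1 and 20.0, 19.3 and 23.6 CPM in wild-type granules 2, against 32.3, 28.9 and 31.7 CPM in wild-type lysates. Again no granule library reached the lowest lysate. Sec61beta fell by 0.64 on the log2 scale in Δmimi granules 2 (SE 0.12, adjusted p = 0.0335), by 0.80 in wild-type granules 1 (SE 0.16, adjusted p = 0.0234) and by 0.54 in wild-type granules 2 (SE 0.13, adjusted p = 0.0369). In Δmimi granules 1 the log2 fold change of -0.50 (SE 0.12, adjusted p = 0.0534) did not pass. It passed in a single fit to all 18 libraries and where genes needed a base mean above 50, and with the replicate block its adjusted p was 0.0013 at a log2 fold change just inside the threshold of 0.5.

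Sec61alpha, by contrast, had 177, 153 and 172 CPM in Δmimi granules 1 and 169, 159 and 170 CPM in Δmimi granules 2, against 161, 165 and 168 CPM in Δmimi lysates. In wild-type heads it had 183, 165 and 183 CPM in granules 1 and 170, 153 and 178 CPM in granules 2, against 160, 163 and 159 CPM in lysates. The log2 fold changes were 0.03, 0.02, 0.13 and 0.08 in Δmimi granules 1 and 2 and wild-type granules 1 and 2, with intervals between -0.19 and 0.36 and adjusted p of 0.422 to 0.921. Only the wild-type granules 1 libraries all lay above their lysates, in a comparison where 32.7% of all genes had no overlap. Per kilobase, Sec61gamma stood at 0.259 ± 0.013 of Sec61alpha in Δmimi granules 1 and 0.273 ± 0.046 in Δmimi granules 2, against 0.541 ± 0.015 in Δmimi lysates. In wild-type heads the ratio was 0.235 ± 0.022 in granules 1 and 0.240 ± 0.027 in granules 2, against 0.514 ± 0.062 in lysates. The ratio of Sec61beta to Sec61alpha was 0.377 ± 0.016 in Δmimi granules 1 and 0.346 ± 0.040 in Δmimi granules 2, against 0.544 ± 0.024 in Δmimi lysates, and 0.270 ± 0.033 and 0.337 ± 0.021 in wild-type granules 1 and 2, against 0.519 ± 0.037 in wild-type lysates.

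**Figure D3:**
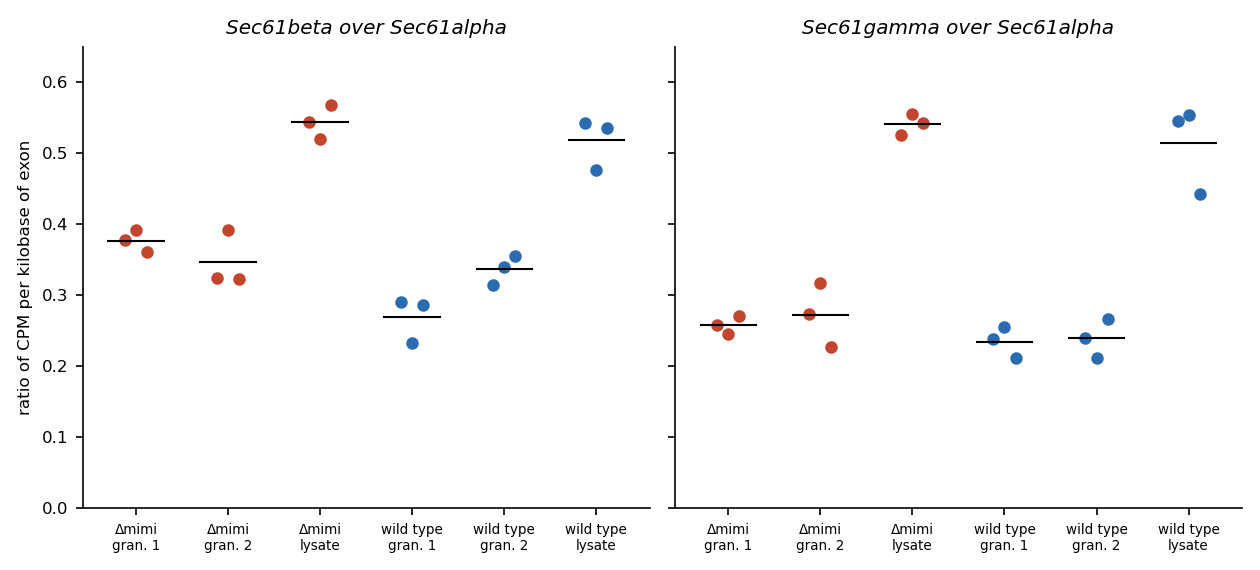
Points show, for each library, the ratio of Sec61beta (left panel) and of Sec61gamma (right panel) to Sec61alpha in CPM per kilobase of exon, in Δmimi (red) and wild-type (blue) granules 1, granules 2 and lysates, with a line at the mean of 3. In both panels every granule library is below every lysate, and both ratios are near 0.5 in lysates.

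The subunits were then set against each other within each preparation, as a description chosen after these values were seen and with no test. The log2 ratio of granules over lysate of Sec61gamma minus that of Sec61alpha was -1.097 ± 0.080 in granules 1 and -1.05 ± 0.26 in granules 2 (mean ± SD over 6 preparations, 3 of each genotype). Sec61beta minus Sec61alpha was -0.738 ± 0.25 in granules 1 and -0.639 ± 0.17 in granules 2. In granules 1 this mean pools genotypes that did not overlap, at -0.53, -0.41 and -0.66 in Δmimi and -0.90, -1.03 and -0.90 in wild-type preparations. In granules 2 the genotypes overlapped. Sec61gamma minus Sec61beta was -0.358 ± 0.25 in granules 1 and -0.411 ± 0.27 in granules 2. Here too the genotypes did not overlap in granules 1, at -0.49, -0.77 and -0.35 in Δmimi and -0.30, -0.08 and -0.16 in wild-type preparations. The gaps were smaller with a per-library correction for exon length. With it, the fitted difference of Sec61gamma minus Sec61alpha was -0.71 and -0.64 in Δmimi granules 1 and 2, beside -1.06 and -0.99 without it, and -0.82 and -0.76 in wild-type granules 1 and 2, beside -1.14 and -1.101. The fitted difference of Sec61beta minus Sec61alpha was then -0.18 and -0.31 in Δmimi granules 1 and 2, beside -0.53 and -0.66, and -0.61 and -0.28 in wild-type granules 1 and 2, beside -0.93 and -0.62.

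Among the 9 genes, 1 was thus called lower in Δmimi granules 1, where 1.92% of all 9729 genes tested were called lower, and 2 in Δmimi granules 2 (1.87% of all genes). In wild-type heads 2 were called lower in granules 1 (3.23% of all genes) and 2 in granules 2 (3.57% of all genes). No gene of the 9 was called higher in any of the 4 comparisons, beside 2.9% and 2.62% of all genes in Δmimi granules 1 and 2 and 5.02% and 5.73% in wild-type granules 1 and 2. The median log2 fold change of the 9 genes was 0.03 and 0.02 in Δmimi granules 1 and 2 and -0.02 and 0.00 in wild-type granules 1 and 2, beside all-gene medians between -0.03 and -0.02.

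**Figure D4:**
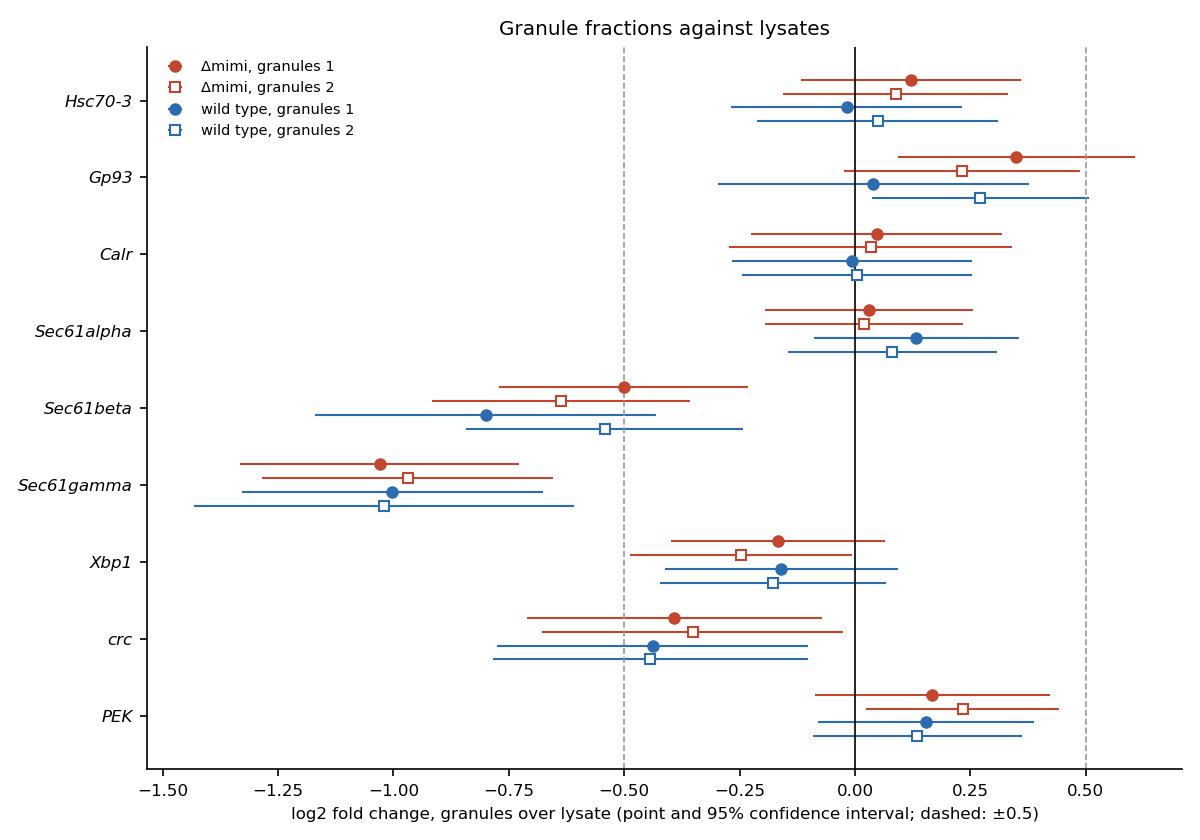
Log2 fold changes of granules over lysate (horizontal axis) are shown for each gene, with 95% confidence intervals, in Δmimi (red) and wild-type (blue) heads, filled for granules 1 and open for granules 2, with dashed lines at ±0.5. Sec61gamma lies near -1 in all 4 comparisons, Sec61beta between -0.80 and -0.50 and crc between -0.44 and -0.35, while the intervals of Hsc70-3, Calr and Sec61alpha span 0.

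These calls did not hold in every alternative fit. In Δmimi heads they were lost whichever preparation was left out, and some calls were lost with the length correction. With the replicate block alone Sec61gamma was called in all 4 comparisons. Its adjusted p was 1.6e-06 and 1.6e-07 in Δmimi granules 1 and 2 and 8.2e-05 in wild-type granules 1. Of all genes, 8.01%, 8.34% and 9.14% were called lower there with the block. Without preparation 2 of its genotype Sec61gamma stood at -0.91 and -1.02 in Δmimi granules 1 and 2 (adjusted p = 0.0542 and 0.0714) and at -0.94 and -0.84 in wild-type granules 1 and 2 (adjusted p = 0.0070 and 0.0232). Leaving out 1 preparation kept Sec61gamma between -1.26 and -0.84 but ended its call in all but 2 of the 12 fits, those without wild-type preparation 2. Sec61beta stayed between -0.85 and -0.44, with its call kept only in granules 1 without wild-type preparation 2. Sec61beta (792 bases of exon) and Sec61gamma (798 bases) are short, and among all genes with under 1000 bases of exon the median log2 fold change was -0.41 in both granule fractions of Δmimi heads and -0.39 and -0.41 in wild-type granules 1 and 2, while it was 0.14 to 0.20 for genes of 4000 bases or more. With a per-library correction for exon length Sec61gamma stood at -0.67 and -0.60 in Δmimi granules 1 and 2 (adjusted p = 0.0409 and 0.0733) and at -0.67 and -0.67 in wild-type granules 1 and 2 (adjusted p = 0.0369 and 0.0613). Of all genes 0.658% and 0.574% were called lower with this correction in Δmimi granules 1 and 2, and 1.32% and 1.29% in wild-type granules 1 and 2. With the replicate block added to the correction Sec61gamma was called in all 4 comparisons (log2 fold changes of -0.68 to -0.59), beside 3.41% and 3.4% of all genes in Δmimi granules 1 and 2 and 4.55% and 4.59% in wild-type granules 1 and 2. Sec61beta then stood between -0.47 and -0.14 and was called in none. Beside this class, Sec61gamma was below the lower quartile of genes under 1000 bases, which lay between -0.68 and -0.64, in each comparison.

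**Figure D5:**
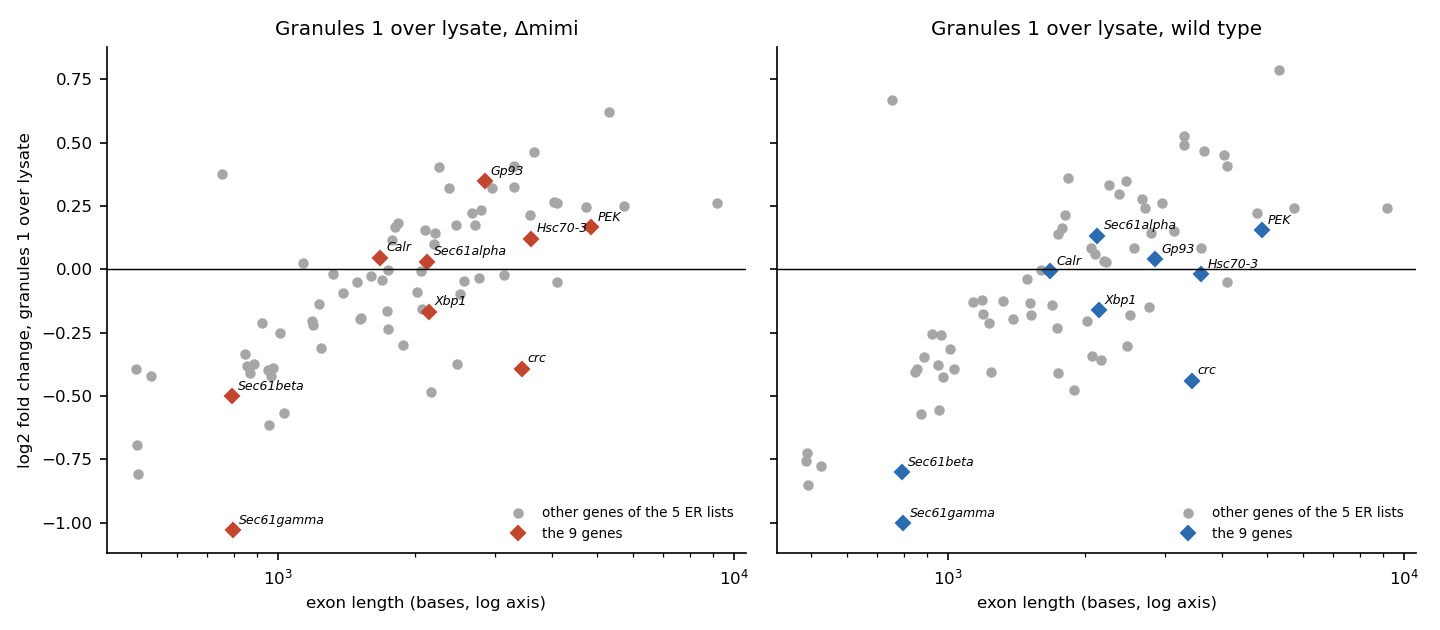
Log2 fold changes of granules 1 over lysate are plotted against exon length (log axis, bases) for the 9 genes (coloured diamonds) and the other genes of 5 lists of ER genes (grey), in Δmimi heads on the left and wild-type heads on the right. Short genes mostly lie low, Thor with 755 bases being the exception, and long genes mostly lie high, while crc, with 3423 bases of exon, lies at -0.39 in Δmimi and -0.44 in wild-type heads, below the other plotted genes of like length.

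None of the luminal chaperones passed the test in granules. Their genes lie on chromosome X (Hsc70-3, 11801696 to 11807117, minus strand) and on 3R (Gp93, 27948711 to 27952151, plus strand, and Calr, 9628691 to 9630851, minus strand). Hsc70-3 had 471, 442 and 492 CPM in Δmimi granules 1 and 453, 442 and 478 CPM in Δmimi granules 2, against 430, 426 and 444 CPM in Δmimi lysates, with log2 fold changes of 0.12 and 0.09. In wild-type heads it had 477, 432 and 439 CPM in granules 1 and 498, 429 and 452 CPM in granules 2, against 479, 435 and 444 CPM in lysates, with log2 fold changes of -0.02 and 0.05. All 4 intervals lay between -0.27 and 0.36. Calr, which with its partner calnexin holds glycoproteins while they fold, had log2 fold changes of 0.05 and 0.03 in Δmimi granules 1 and 2 and of -0.01 and 0.00 in wild-type granules 1 and 2, with intervals between -0.27 and 0.34.

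Gp93, the ER member of the Hsp90 family, had the highest log2 fold change of the 9 genes in Δmimi granules 1 and wild-type granules 2, though it passed in no comparison. It had 209, 231 and 204 CPM in Δmimi granules 1 and 185, 200 and 208 CPM in Δmimi granules 2, against 154, 173 and 181 CPM in Δmimi lysates. In wild-type heads it had 212, 153 and 195 CPM in granules 1 and 211, 222 and 210 CPM in granules 2, against 170, 197 and 175 CPM in lysates. All but the wild-type granules 1 libraries lay above their lysates without overlap, and in that group preparation 2 was below its own lysate while the others were above. Of all genes, 29.1%, 28.7% and 34.1% had no overlap in Δmimi granules 1 and 2 and wild-type granules 2. The log2 fold changes were 0.35 (SE 0.11, adjusted p = 0.114) and 0.23 (SE 0.11, adjusted p = 0.259) in Δmimi granules 1 and 2 and 0.04 (SE 0.14, adjusted p = 0.895) and 0.27 (SE 0.10, adjusted p = 0.131) in wild-type granules 1 and 2. With the replicate block the adjusted p was 0.0007 and 0.0032 in Δmimi granules 1 and 2 and 0.0119 in wild-type granules 2, but the change stayed under the fold threshold. By the block's adjusted p alone, 18.3%, 20.4%, 16.2% and 19.2% of all genes were higher in Δmimi granules 1 and 2 and wild-type granules 1 and 2. Without wild-type preparation 2 the wild-type granules 1 value was 0.24 (adjusted p = 0.146). The annotation has CG4951 on the other strand over 101 bases of Gp93 exon, and CG4951 itself had group means of 11.8 to 16.3 CPM.

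Of the signalling genes, crc stood lowest against its lysates, though it did not pass the test. The gene (dm6, chromosome 2L, 21310866 to 21319527, plus strand) has 3423 bases of exon. Its RNA had 933, 820 and 953 CPM in Δmimi granules 1 and 959, 856 and 964 CPM in Δmimi granules 2, against 1259, 1039 and 1272 CPM in Δmimi lysates. In wild-type heads it had 880, 792 and 992 CPM in granules 1 and 908, 740 and 946 CPM in granules 2, against 1229, 1047 and 1317 CPM in lysates. No granule library overlapped the lysates of its genotype, which held for 29.1%, 28.7%, 32.7% and 34.1% of all genes in Δmimi granules 1 and 2 and wild-type granules 1 and 2. Preparation 2, the one with the most muscle marker RNA, was the lowest in every fraction of both genotypes, and within a preparation the log2 ratio of granules over lysate lay between -0.50 and -0.28. The fitted log2 fold changes of -0.39 and -0.35 in Δmimi granules 1 and 2 (SE 0.14 each, adjusted p = 0.145 and 0.189) and of -0.44 in wild-type granules 1 and 2 (SE 0.14 and 0.15, adjusted p = 0.103 and 0.0959) did not pass. Without preparation 2 of each genotype they were -0.41 and -0.38 in Δmimi granules 1 and 2 (adjusted p = 0.211 and 0.265) and -0.44 and -0.44 in wild-type granules 1 and 2 (adjusted p = 0.0357 and 0.0458), still under the fold threshold.

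With the replicate block the adjusted p of crc was 8.3e-05 and 6.6e-05 in Δmimi granules 1 and 2 and 0.0015 and 0.0006 in wild-type granules 1 and 2, at log2 fold changes of -0.45 to -0.35, short of the fold threshold. By the block's adjusted p alone, 16.6%, 18.3%, 16.5% and 16.8% of all genes were lower in Δmimi granules 1 and 2 and wild-type granules 1 and 2. The block together with the length correction gave -0.48 and -0.44 in Δmimi granules 1 and 2, which did not pass the fold threshold, and -0.51 and -0.55 in wild-type granules 1 and 2, which did. Among all genes with 2000 to 4000 bases of exon, the class of crc, the median was 0.06 and 0.04 in Δmimi granules 1 and 2 and 0.03 and 0.05 in wild-type granules 1 and 2. The later annotation places CG46314 on the same strand over 2515 bases of crc exon. CG46314 is not in the count table, so the count of crc may hold reads of both.

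Xbp1 (2R, 21143545 to 21145750, plus strand) had 433, 426 and 429 CPM in Δmimi granules 1 and 399, 424 and 395 CPM in Δmimi granules 2, against 471, 509 and 476 CPM in Δmimi lysates, with log2 fold changes of -0.17 and -0.25. It had 403, 412 and 434 CPM in wild-type granules 1 and 392, 409 and 405 CPM in wild-type granules 2, against 433, 498 and 457 CPM in wild-type lysates, with log2 fold changes of -0.16 and -0.18. The wild-type granules 1 libraries overlapped the lysates and the other granule groups did not. Of all genes, 29.1%, 28.7% and 34.1% had no overlap in Δmimi granules 1 and 2 and wild-type granules 2. None passed (adjusted p = 0.209 to 0.393), and with the replicate block the adjusted p was 0.0018 in Δmimi granules 2 and 0.0496 in Δmimi granules 1. By the block's adjusted p alone, 18.3% and 16.6% of all genes were lower there. PEK (3R, 5458563 to 5464753, minus strand) had log2 fold changes of 0.17 and 0.23 in Δmimi granules 1 and 2 and of 0.15 and 0.13 in wild-type granules 1 and 2 (adjusted p = 0.177 to 0.413). Only the Δmimi granules 2 libraries of PEK, at 118, 121 and 129 CPM, lay above all Δmimi lysates, at 104, 106 and 105 CPM (adjusted p with the replicate block = 0.0071). In that comparison 28.7% of all genes had no overlap, and 20.4% were higher by the block's adjusted p alone.

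The loss of mimi did not detectably change how these RNAs divided between granules and lysate. In the interaction fits to 12 libraries each, none of the 9 genes was called or reached an unadjusted p under 0.05, and DESeq2 called none. The share of all genes called was 0.0102% for granules 1 and 0.0% for granules 2, and 2.81% and 2.6% had an unadjusted p under 0.05. With the replicate block 0.522% and 0.648% of all genes and again none of the 9 were called. The difference in log2 fold change, Δmimi minus wild type, was largest for Gp93 in granules 1, at 0.30 (interval -0.10 to 0.69), where the low wild-type preparation 2 described above enters, followed by Sec61beta at 0.28 (interval -0.12 to 0.69) and, downward, Sec61alpha at -0.12. In granules 2 the differences lay between -0.09 for Sec61beta and 0.10 for PEK. The intervals over the 9 genes reached from -0.43 to 0.69 for granules 1 and from -0.44 to 0.53 for granules 2, so differences beyond 0.5 were outside the intervals of most of these genes but not of Gp93 and Sec61beta in granules 1 and of Sec61gamma and crc in granules 2.

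Compared directly, Δmimi and wild-type granules showed no detected difference in these RNAs. None of the 9 genes was called in granules 1 (5.72% of all genes were called) or in granules 2 (5.25%), and DESeq2 called none of them in either. At an unadjusted p under 0.05 stood 1 of the 9 in granules 1 (19.8% of all genes) and 0 of the 9 in granules 2 (18.3%). The log2 fold change of Δmimi over wild type lay between -0.06 for Sec61alpha and 0.42 for Sec61beta in granules 1 (adjusted p for Sec61beta = 0.205) and between -0.11 for Gp93 and 0.18 for Sec61gamma in granules 2. Sec61beta in granules 1, with 24.9, 22.3 and 23.1 CPM in Δmimi and 19.8, 14.3 and 19.5 CPM in wild-type heads, did not overlap between genotypes, which was so for 26.3% of all genes. In granules 2 the exception was Gp93, lower in each Δmimi library than in each wild-type library, beside 24.2% of all genes without overlap. No change with the wash passed the test: in granules 2 against granules 1 none of the 9 genes and 0.0% of all genes were called in either genotype. None of the 9 had an unadjusted p under 0.05, as 0.596% of all genes did in Δmimi and 0.954% in wild-type heads, DESeq2 called none of the 9, and the log2 fold changes of the 9 genes lay between -0.13 and 0.07 in Δmimi and between -0.07 and 0.24 in wild-type heads.

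The rule by which RNAs were classed as components of mimi granules has to hold in both granule fractions. The log2 fold change over lysate must either exceed that of Δmimi heads by over 0.5 in wild-type heads, or be positive and pass at adjusted p below 0.05 for wild-type heads while not doing so for Δmimi heads. The methods of the study name no adjustment for the p of this rule, and it was read here with the adjusted p. None of the 9 genes met it, beside 3.67% of the 9408 genes that could be judged, and with the unadjusted p it was again none of the 9, beside 4.06%. The share of all genes moved with the preparations, between 1.64% and 6.15% with 1 of them left out. With the genotypes exchanged 1.07% met the rule (1.92% with the unadjusted p, and 1.15% to 2.97% with a preparation left out). The exchanged share was the larger without wild-type preparation 1 (2.31%, against 1.74% for the rule itself), without wild-type preparation 3 (2.97%, against 1.64%) and with the replicate block (3.45%, against 3.02%). None of the 9 genes met either rule in any of these fits.

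Other genes of the pathway were taken from 5 lists. The translocation list holds the partners of the Sec61 channel, the signal peptidase and the ER membrane complex (EMC), which inserts membrane proteins. Of its 21 genes tested, 3 were called lower in Δmimi granules 1 and none in Δmimi granules 2, 4 lower and 1 higher in wild-type granules 1 and 4 lower in wild-type granules 2. Of all genes, 1.92% and 1.87% were called lower in Δmimi granules 1 and 2, 3.23% lower and 5.02% higher in wild-type granules 1 and 3.57% lower in wild-type granules 2. The list medians were -0.21 and -0.29 in Δmimi granules 1 and 2 and -0.25 and -0.22 in wild-type granules 1 and 2, beside all-gene medians between -0.03 and -0.02. In fits with the replicate block 4 genes were called lower in Δmimi granules 2 (Spase12, twr, EMC4 and EMC5), EMC5 was added in Δmimi granules 1 and EMC5 and EMC6 in wild-type granules 2, which made 6 there. Of all genes, 8.01% and 8.34% were called lower with the block in Δmimi granules 1 and 2 and 9.14% and 9.37% in wild-type granules 1 and 2. No gene of the list was called in lysates or in any other comparison between genotypes, and the lowest p in lysates was that of Sec63, a partner of the channel, at -0.35 in Δmimi against wild type (adjusted p = 0.198).

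Genes with short exons led this list. Spase12, a small subunit of signal peptidase with 493 bases of exon, had 12.8, 13.9 and 14.8 CPM in Δmimi granules 1, against 23.4, 25.0 and 24.8 CPM in Δmimi lysates. In wild-type heads Spase12 had 10.3, 14.3 and 9.83 CPM in granules 1, against 19.4, 20.4 and 22.1 CPM in lysates. The groups did not overlap in either genotype, which held for 29.1% of all genes in Δmimi and 32.7% in wild-type granules 1. The log2 fold changes of Spase12 were -0.81 (adjusted p = 0.0154) in Δmimi granules 1, -0.85 (adjusted p = 0.0236) in wild-type granules 1 and -0.77 (adjusted p = 0.0478) in wild-type granules 2. EMC4 fell by 0.62 on the log2 scale in Δmimi granules 1, by 0.56 in wild-type granules 1 and by 0.74 in wild-type granules 2, and EMC10 fell by 0.57 in Δmimi granules 1 and by 0.50 in wild-type granules 2. EMC5 and EMC6, with 492 and 489 bases of exon, fell by 0.72 and 0.76 in wild-type granules 1, and Tapdelta, a subunit of the complex beside the channel, fell by 0.58 in wild-type granules 2. The only gene of the list called higher was EMC1, the large subunit with 3292 bases of exon, at 0.53 in wild-type granules 1. With the length correction the log2 fold changes of these calls lay between -0.45 and 0.46 and none was called.

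Uggt, the enzyme that tags misfolded glycoproteins for another round of calreticulin binding, went the other way. It had 273, 253 and 309 CPM in Δmimi granules 1 and 297, 250 and 302 CPM in Δmimi granules 2, against 198, 158 and 189 CPM in Δmimi lysates. In wild-type heads Uggt had 307, 268 and 345 CPM in granules 1 and 313, 278 and 323 CPM in granules 2, against 199, 156 and 177 CPM in lysates. Every granule library was above every lysate. Within a genotype, 29.1%, 28.7%, 32.7% and 34.1% of all genes had no overlap in Δmimi granules 1 and 2 and wild-type granules 1 and 2. Uggt passed in all 4 comparisons, at 0.62 and 0.65 in Δmimi granules 1 and 2 (adjusted p = 0.0398 and 0.0438) and at 0.79 and 0.81 in wild-type granules 1 and 2 (adjusted p = 0.0166 and 0.0080). Uggt has 5316 bases of exon, and with the replicate block and the length correction it stood at 0.46 and 0.48 in Δmimi granules 1 and 2, under the fold threshold, and at 0.66 and 0.65 in wild-type granules 1 and 2, over it. Of the 9 glycosylation genes tested, the only other one called was GCS2alpha, a glucosidase that trims the glycan, at 0.53 in wild-type granules 2. That made 1, 1, 1 and 2 of the 9 called higher in Δmimi granules 1 and 2 and wild-type granules 1 and 2, beside 2.9%, 2.62%, 5.02% and 5.73% of all genes, and from lists of this size nothing particular to them is read. Under the replicate block Dad1, a subunit of the glycan transferase, was called lower in wild-type granules 1 and 2, at -0.78 and -0.56, as were 9.14% and 9.37% of all genes.

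Of the 14 folding genes tested, ninaA, the photoreceptor cyclophilin that rhodopsin needs to leave the ER, was the only one called in granules, at -0.57 in wild-type granules 1 (adjusted p = 0.0296), 1 of 14 beside 3.23% of all genes called lower there. It had 82.0, 62.4 and 71.3 CPM there, against 105, 105 and 109 CPM in wild-type lysates, in libraries whose photoreceptor markers summed to 13989 to 23726 CPM, against 19778 to 31129 CPM in those lysates. The part of these cells in the result was not tested. The replicate block added calls of ninaA in Δmimi granules 2, at -0.50, and of Sil1, an exchange factor of Hsc70-3, at 0.50 in wild-type granules 2, 1 of 14 each beside 8.34% of all genes called lower and 8.58% called higher with the block. Of the 9 degradation genes tested, Ubc7 was called at -0.52 in wild-type granules 2, where 3.57% of all genes were called lower, and no gene in the other granule comparisons. Of the 12 stress signalling genes, the sensor Ire1 stood at 0.26 in Δmimi granules 1 (adjusted p = 0.111) and at 0.45 in wild-type granules 1, where its adjusted p was 0.0345 but the change was under the fold threshold.

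Between genotypes, 2 of the 65 listed genes tested were called in granules 1 (3.08%, beside 5.72% of all genes), 3 in granules 2 (4.62%, beside 5.25%) and 0 in lysates (beside 1.6%). Fits with the replicate block called 4 in granules 1 (6.15%, beside 10.4% of all genes), 4 in granules 2 (6.15%, beside 11.1%) and 3 in lysates (4.62%, beside 9.25%). These shares were below those of all genes, so the genes are given by name and nothing is read from their number. Npl4, a partner of the ATPase that pulls proteins out of the ER membrane, had 213, 197 and 149 CPM in Δmimi granules 2, against 104, 132 and 97.6 CPM in wild-type granules 2 (log2 fold change 0.75, adjusted p = 0.0433). The genotypes did not overlap, which held for 24.2% of all genes there. In lysates Npl4 had 261, 259 and 226 CPM in Δmimi heads, against 99.3, 187 and 112 CPM in wild-type heads, where the log2 fold change of 0.91 had an adjusted p of 0.122 and, with the replicate block, the value of 0.96 had one of 0.0017. Without wild-type preparation 2, the library with 187 CPM, the lysate value was 1.23 (adjusted p = 0.0086). In granules 1 Npl4 stood at 0.84 (adjusted p = 0.0552, or 0.0055 with the replicate block). S1P, a protease that cuts membrane-bound transcription factors in the Golgi, had 21.8, 21.5 and 22.7 CPM in Δmimi granules 1, against 33.3, 35.5 and 41.7 CPM in wild-type granules 1 (log2 fold change -0.72, adjusted p = 0.0184). It was lower in Δmimi granules 2 as well (-0.79, adjusted p = 0.0170) and stood at -0.55 in lysates (adjusted p = 0.160, or 0.0124 with the replicate block).

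Thor (the fly 4E-BP), an inhibitor of translation and a known target of crc in flies, had 35.4, 32.0 and 31.2 CPM in Δmimi granules 1, against 58.4, 43.5 and 62.6 CPM in wild-type granules 1 (log2 fold change -0.71, adjusted p = 0.0387). In granules 2 Thor had 32.0, 27.0 and 31.0 CPM in Δmimi heads, against 53.3, 59.1 and 66.6 CPM in wild-type heads (log2 fold change -0.98, adjusted p = 0.0057). Neither pair of groups overlapped, which held for 26.3% of all genes in granules 1 and 24.2% in granules 2. In lysates Thor had 24.1, 28.1 and 24.2 CPM in Δmimi heads, against 26.6, 40.5 and 36.0 CPM in wild-type heads, which did not pass. Thor was called in granules 2 against lysate of wild-type heads, at 0.82 (adjusted p = 0.0243), but the genotype difference in granule enrichment, -0.58 for granules 2, was not called (adjusted p = 0.9998, or 0.132 with the replicate block). Under the replicate block Thor was called in wild-type granules 1 over lysate as well, at 0.66. Of all genes, 5.73% were called higher in wild-type granules 2, and 7.46% in wild-type granules 1 with the block. The folding gene wbl, an ER protein needed for the export of a sulfotransferase, was called higher in Δmimi heads only with the replicate block, by 0.77 in lysates (adjusted p = 0.0044), by 0.86 in granules 1 (adjusted p = 0.0069) and by 0.91 in granules 2 (adjusted p = 0.0008).

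Leaving out 1 preparation kept the direction of every call of a listed gene in granules over lysate. Each such call was lost without preparation 1 and without preparation 3 of its genotype, and in Δmimi heads also without preparation 2. In wild-type heads EMC4 and ninaA in granules 1 lost their calls without preparation 2 as well. So did Tapdelta, Spase12 and EMC10 in wild-type granules 2. With 1 preparation left out Uggt ranged from 0.58 to 0.70 and from 0.63 to 0.67 in Δmimi granules 1 and 2. In wild-type granules 1 and 2 it ranged from 0.69 to 0.89 and from 0.75 to 0.86. The calls between genotypes kept their direction too. They were lost without Δmimi preparation 1 or 2 or wild-type preparation 1 or 3 for Npl4 in granules 2 (0.63 to 0.90 over 6 fits), without any Δmimi preparation or wild-type preparation 3 for S1P in granules 1 (-0.78 to -0.62), without Δmimi preparation 2 or 3 or wild-type preparation 1 or 3 for S1P in granules 2 (-0.88 to -0.70) and in all fits but that without wild-type preparation 2 for Thor in granules 1 (-0.85 to -0.61). Thor in granules 2 kept its call in each of the 6 fits, at -1.07 to -0.90.

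Across the 18 libraries some of the members varied together, and no grouping of them was tested. Sec61beta and Sec61gamma had a Pearson correlation of 0.88 in log2(CPM + 1), crc correlated at 0.84 with Sec61beta and 0.82 with Sec61gamma, and Xbp1 at 0.83 with Sec61gamma. Hsc70-3 correlated at 0.56 with Calr and 0.52 with PEK. Gp93 and Sec61gamma were opposed, at -0.61, and so were Xbp1 and PEK, at -0.56, and Gp93 and crc, at -0.56. Sec61gamma and PEK stood at -0.54 and Hsc70-3 and Xbp1 at -0.53. These points share the split between granules and lysate and 6 preparations, and the values are given as a description. Of 7759 genes compared over the 18 libraries, the 5 most like Hsc70-3 were Srrm1 (r = 0.79), Alms1a (0.78), Cpsf6 (0.76), CG4332 (0.76) and ocm (0.75). The 5 most like Xbp1 were bero (0.92), CG6972 (0.91), ox (0.90), ND-AGGG (0.90) and CG32276 (0.90).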

How the data were processed

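Total RNA of 18 libraries was sequenced after TruSeq Stranded total RNA (Gold) preparation. The deposited values are whole-number counts per gene that the authors made against dm6 with the Ensembl release 96 annotation, and the submitters' processing notes name STAR, Subread, featureCounts and DESeq2. Their versions, and whether reads were counted by strand, are not given in the sources used here. Symbols, positions and exon lengths were taken from Ensembl release 115, which matched 17252 identifiers and left 306 unmatched. Reads of genes that overlap on the same strand cannot be split, and for opposite strands the split depends on the strand setting. Totals were 3635256 to 7798946 counts per library.

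Counts were fitted with the quasi-likelihood test of edgeR 4.0.16 in R 4.3.3 (TMM scaling), separately for each pair of groups, over genes with a mean normalized count above 10. A call needed an adjusted p under 0.05 (Benjamini-Hochberg over all genes tested) together with a log2 fold change beyond 0.5 in either direction, as in the study. Standard errors are the absolute log2 fold change over the root of the F statistic, and 95% confidence intervals use the degrees of freedom of the fit. Interaction fits used 12 libraries. The code was tested on simulated data. Alternatives were RLE size factors, DESeq2 1.42.0, other filters, 1 fit to 18 libraries, a replicate block, a loess length correction (span 0.3), both together, and each preparation left out. The block is warranted within a genotype by the series design, in which granules come from the corresponding lysate, and across genotypes by the data alone: deviations of same-numbered libraries correlated at 0.40 to 0.76 within a genotype and 0.28 to 0.73 between genotypes. Preparations are separate pools of flies, so in direct comparisons of genotypes without the block p-values measure the spread between such pools. Without the block, comparisons of fractions and the interaction fits treat libraries of 1 preparation as independent. The block removes what libraries of 1 preparation, or of 1 replicate number across genotypes, share. Its p-values measure the spread that remains.

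All members were reported. Of each of 5 pathway lists the text names up to 4 called genes per comparison, lowest adjusted p first, or the gene of lowest p where it says so. Genes called only with the replicate block and the differences between subunits, given with no test, were chosen after values were seen. Members and lists were chosen with earlier results of these data known.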

Additional observations from a re-analysis of the deposited data

Results flagged for a closer look

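Hsc70-3 was the gene of the 9 whose granules 1 enrichment was above 0 in each Δmimi preparation and below 0 in each wild-type preparation. The share of all genes that split in this way is not given here, so nothing particular to Hsc70-3 is read from it. The log2 ratio of granules 1 over lysate of Hsc70-3 was 0.13, 0.06 and 0.15 in the Δmimi preparations, all above 0. In the wild-type preparations it was -0.01, -0.01 and -0.02, all below 0. The wild-type sign is within the reach of the scaling. In that comparison RLE size factors moved the median gene by 0.013 and library totals by -0.052. The mean difference, Δmimi minus wild type, was 0.122. The difference itself was not called in the interaction fit of edgeR (0.12, SE 0.13, adjusted p of 1.0), whose 95% confidence interval reached from -0.15 to 0.40, and the granules 2 ratios did not split the genotypes in this way.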

How the results depend on the processing

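Among 89 results for single genes, 88 kept direction and call with RLE size factors, 85 with DESeq2, 86 with no filter, 85 with a base mean above 50, 83 with 1 fit to all 18 libraries, 83 with the replicate block, 58 with the length correction and 55 with the block and length correction together. An alternative chosen after the data were seen, library totals without TMM, kept 77. The replicate block changed no call of the 9 genes, and beyond the listed genes given with it above it changed no other call of these genes. The number of the 9 genes called lower in Δmimi granules 1 was 1, but 2 with a base mean above 50 or 1 fit to all 18 libraries, and 0 to 0 with a preparation left out. In Δmimi granules 2 it was 2, but 0 with the length correction, 1 with the block and length correction, and 0 to 0 with a preparation left out. In wild-type granules 1 it was 2, but 1 with the length correction and 0 to 2 with a preparation left out. In wild-type granules 2 it was 2, but 0 with the length correction and 0 to 1 with a preparation left out. The cause was not tested, except that the length correction removes what genes of like length share and a fit with a preparation left out has fewer libraries.

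Values that changed sign were all small and not called. With the length correction, and with the block added to it, they were 0.0043 and 0.0036 for crc in lysates, -0.013 and -0.013 for Hsc70-3 in Δmimi granules 2, -0.013 and -0.023 for Gp93 and 0.067 and 0.064 for Calr in wild-type granules 1, and -0.057 and -0.060 for Hsc70-3 and -0.014 and -0.016 for PEK in wild-type granules 2. With library totals they were -0.0076 for Gp93 in wild-type granules 1 and -0.031 for Hsc70-3 and -0.075 for Calr in wild-type granules 2. A base mean above 50 gave 0.0013 for crc in lysates and -0.028 for Calr in wild-type granules 2, and no filter gave -0.016 for the same. Calr in wild-type granules 1 was 0.0065 with RLE size factors, 0.0066 with DESeq2 and 0.0069 with 1 fit to all 18 libraries. With a preparation left out the range was -0.0069 to 0.133 for Calr, -0.101 to 0.087 for crc and -0.010 to 0.040 for PEK in lysates, -0.031 to 0.098 for Sec61alpha in Δmimi granules 1 and -0.018 to 0.058 in Δmimi granules 2, -0.094 to 0.243 for Gp93 and -0.059 to 0.040 for Calr in wild-type granules 1, and -0.028 to 0.012 for Calr in wild-type granules 2. Depth limits the small translocon subunits most, with 58 to 253 counts a library.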
